A study of Mus musculus with 7 samples.

Results

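The genes described here are the nuclear genes for the subunits of the oxidative phosphorylation (OXPHOS) system, chosen by the gene symbols of complexes I to V, with assembly factors left out. Of 46603 genes in the count files, 84 protein-coding genes met this rule, namely 35 of complex I, 4 of complex II, 9 of complex III, 20 of complex IV and 16 of complex V. Ndufa4 and Ndufa4l2, which carry complex I names, were placed in complex IV, where the Ndufa4 protein is now assigned. Of the 84 genes, 82 passed the filter on low counts, and Cox7b2 and Cox8c, isoforms known mainly from testis, had a count of 0 in every library.

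The study asked how tumors that grew from NM1 KO cells differ from tumors of the same cells with NM1 put back. NM1, nuclear myosin 1, is an isoform made from the Myo1c gene. KO cells are mouse embryonic fibroblasts (MEFs, ATCC CRL-2752) that lost NM1 through CRISPR/Cas9 editing. KO+NM1 cells are KO cells that carry the NM1 coding sequence with HA and V5 tags from a lentivirus and were taken as single clones after neomycin selection, so both groups share the deletion. Cells were injected subcutaneously into the right flank of female nude mice of 16 weeks, 5 per group, a host that lacks T cells, and tumors were removed at 30 days, according to the labels. The study's text differs from the labels in part, since it names Balb/c nude mice, gives a slightly shorter time to removal and in places puts the injection in the mammary pad. According to the labels, 1 tumor of each condition was cut into 4 pieces, and RNA of 3 KO pieces and 4 KO+NM1 pieces was sequenced. An SD or a p-value therefore covers the spread between pieces, and the spread between mice cannot be seen from pieces of a single tumor.

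Total counts were between 24088309 and 28326568 per piece, and levels are given as CPM (counts per 1000000 of the library size after TMM scaling). A count of 0 allows up to 3 counts, here 0.0991 to 0.148 CPM, a floor that covers counting error only. Myo1c stood at 313, 289 and 306 CPM in KO pieces 01, 02 and 03 and at 438, 408, 406 and 382 CPM in KO+NM1 pieces 01 to 04. The groups did not overlap for this gene, but counts per gene do not separate NM1 from other Myo1c isoforms or from the lentiviral copy, so they do not check the deletion itself. Transcripts of injected cells and of host tissue were not separated. Markers of skeletal muscle summed to 2874 to 22744 CPM in KO pieces and 21.8 to 39.9 CPM in KO+NM1 pieces, those of white adipocytes to 281 to 685 CPM and 6617 to 51971 CPM, those of brown adipocytes to 4.07 to 14.5 CPM and 291 to 2897 CPM, those of mammary epithelium to 3.67 to 65.6 CPM and 405 to 1733 CPM, and those of macrophages to 1648 to 1864 CPM and 331 to 466 CPM. Fibroblast markers, the injected cell type, overlapped in sum with 7198 to 12994 CPM against 2847 to 13010 CPM. This sum rests largely on Col1a1, Col1a2 and Col3a1. Of the 8 fibroblast markers, 4 were lower in KO by 2-fold or more (edgeR adjusted p below 0.05) and 0 were higher. The 4 were Pdgfra, Pdgfrb, Dcn and Lum. The part of these cell types in the results on subunit genes was not tested, and in bulk tissue fewer cells of a type and less RNA per cell cannot be told apart.

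OXPHOS takes place in the inner mitochondrial membrane. Complex I passes electrons from NADH and complex II from succinate to ubiquinone, complex III hands them to cytochrome c, complex IV passes them to oxygen, and complex V, the ATP synthase, uses the proton gradient built by complexes I, III and IV to make ATP. Most subunits are encoded in the nucleus and the remainder in mitochondrial DNA. Several subunits of complex IV exist as isoforms. The products of Cox6a2, Cox7a1 and Cox8b are the forms of heart and skeletal muscle, and Cox7a1 and Cox8b are also known from brown fat, while Cox6a1, Cox7a2 and Cox8a are expressed in most tissues. Subunit genes of the common forms are known targets of NRF1, of ETS factors and of the ERR receptors.

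The bases before the start sites of 5 genes are shown, as examples chosen after the values were seen from the isoform families the results turn on. They are the 250 bases upstream of the RefSeq start on GRCm38.p6, 5′ to 3′ on the gene's strand. Cox8b is shown beside its widely expressed partner Cox8a, Cox7a1 as a further tissue isoform, Cox6a1 as the widely expressed partner of Cox6a2, and Atp5g1 as a gene that was higher in KO pieces. Capitals mark matches, on either strand, to the NRF1 motif GCGCATGC, the ETS motif CCGGAAG and the E-box CAGCTG.
Cox8b, chr7:140900447-140900696, minus strand: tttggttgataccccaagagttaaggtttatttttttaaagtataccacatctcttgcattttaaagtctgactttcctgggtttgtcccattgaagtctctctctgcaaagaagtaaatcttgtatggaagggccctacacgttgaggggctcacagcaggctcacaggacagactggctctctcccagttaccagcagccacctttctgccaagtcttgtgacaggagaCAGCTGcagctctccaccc
Cox8a, chr19:7217617-7217866, minus strand: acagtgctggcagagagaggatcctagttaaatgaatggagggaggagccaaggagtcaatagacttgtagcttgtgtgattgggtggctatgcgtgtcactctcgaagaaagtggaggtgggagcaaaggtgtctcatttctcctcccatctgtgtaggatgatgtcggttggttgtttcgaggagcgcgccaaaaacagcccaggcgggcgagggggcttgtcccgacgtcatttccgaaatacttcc
Cox7a1, chr7:30183921-30184170, plus strand: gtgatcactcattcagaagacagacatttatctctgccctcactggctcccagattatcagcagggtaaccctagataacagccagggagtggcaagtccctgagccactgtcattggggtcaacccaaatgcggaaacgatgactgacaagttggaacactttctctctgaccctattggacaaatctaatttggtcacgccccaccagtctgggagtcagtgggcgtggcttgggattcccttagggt
Cox6a1, chr5:115348959-115349208, minus strand: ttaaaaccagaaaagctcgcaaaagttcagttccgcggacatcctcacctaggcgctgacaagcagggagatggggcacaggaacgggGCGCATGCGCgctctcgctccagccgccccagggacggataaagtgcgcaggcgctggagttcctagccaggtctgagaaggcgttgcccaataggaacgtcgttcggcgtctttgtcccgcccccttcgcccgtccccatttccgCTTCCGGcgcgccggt
Atp5g1, chr11:96075632-96075881, minus strand: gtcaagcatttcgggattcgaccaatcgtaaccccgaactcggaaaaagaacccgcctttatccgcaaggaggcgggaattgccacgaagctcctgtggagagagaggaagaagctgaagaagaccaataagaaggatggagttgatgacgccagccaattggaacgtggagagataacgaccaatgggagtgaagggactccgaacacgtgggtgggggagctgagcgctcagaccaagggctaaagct
Cox6a1 held the NRF1 letters, as matches on both strands that overlap, and the ETS letters. Cox8b held an E-box, and Cox7a1, Cox8a and Atp5g1 held none of the motifs searched, which were those of NRF1, ETS factors, YY1 (AAGATGGC), ERR (TCAAGGTCA), the E-box and MEF2. Start regions were matched for 66 of the 84 genes. The NRF1 letters were found in 8 of them (12.1%) and in 2.26% of all 32851 regions of the table, and the ETS letters in 12 (18.2%) and in 6.91% of all. An E-box was found in 6 (9.09%, against 13.0% of all), the YY1 and ERR letters in 1 each (1.52%, against 1.56% and 0.387% of all), and the MEF2 motif in 0 (against 2.92% of all). These are matches of letters and say nothing of binding.

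Of the 82 tested subunit genes, 51 passed an adjusted p of 0.05 in neither direction, and those that passed were lower in KO except for Cox6a2, Atp5g1 and Atp5g2. Of the 82 tested genes, 23 (28.0%) were lower in KO by 2-fold or more with an adjusted p below 0.05 (edgeR quasi-likelihood test with Benjamini-Hochberg adjustment over all genes), and 20.3% of all 16887 genes tested were called in this direction. Called higher in KO were 2 genes, Cox6a2 and Atp5g1, while 17.1% of all genes were. By the adjusted p alone, 28 subunit genes were lower (24.5% of all genes) and 3 were higher (25.7% of all genes). The median log2 fold change, KO minus KO+NM1, was -0.86 over the 82 genes and -0.0017 over all genes tested, and 78 of the 82 values were below 0.

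**Figure D1:**
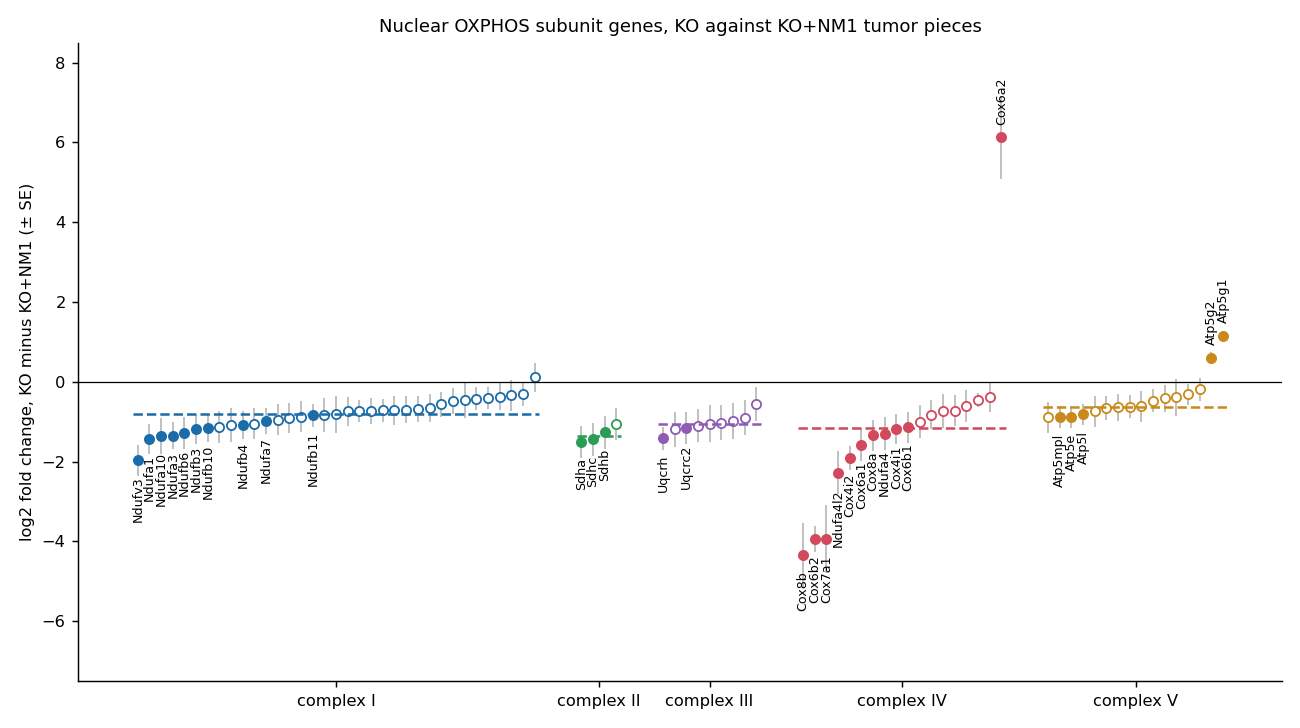
Log2 fold change, KO minus KO+NM1, with its standard error for each of the 82 tested subunit genes, ordered within complexes I to V. Filled and named points passed an adjusted p of 0.05, open points did not, and dashed lines mark the median of each complex, from -0.62 in complex V to -1.36 in complex II, with Cox6a2 at 6.13 far above the other genes.

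The number of calls depended on single libraries. The subunit genes called lower were 6, 9 and 8 of 82 without KO pieces 01, 02 and 03. Of all genes, 16.6%, 18.8% and 17.0% were then lower. Without KO+NM1 pieces 02, 03 and 04 the numbers were 11, 12 and 16, beside 17.0%, 18.0% and 17.6% of all genes. Without KO+NM1 piece 01 the number was 56, with a median log2 fold change of -1.18, and 2 genes were higher, where 25.1% of all genes were lower and 21.7% were higher. Without KO+NM1 piece 03 the median was -0.53. Of the 25 called genes, 7 kept an adjusted p under 0.05 in all 13 alternatives, namely Cox6b2, Cox8b, Cox4i2, Ndufa4l2, Ndufv3, Uqcrh and Atp5g1. Cox6a2 kept it without each library, and the other 17 lost it without at least 1 library, with edgeR adjusted p-values of at most 0.129. Of these 17, 14 lost it whichever of the 3 KO pieces was left out, Cox7a1 and Ndufa3 without KO piece 01, and Ndufa1 without KO piece 01 or 03.

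The 4 KO+NM1 pieces differed far more among themselves than the 3 KO pieces. Over the 82 genes the median log2 CPM was 6.50, 6.54 and 6.44 in KO pieces 01, 02 and 03 and 6.42, 7.44, 8.03 and 7.05 in KO+NM1 pieces 01 to 04. KO+NM1 piece 01 was thus below every KO piece and the other three KO+NM1 pieces were above them. The ratio of the highest to the lowest piece had a median of 1.12 among KO pieces and of 3.28 among KO+NM1 pieces. KO+NM1 piece 03 held the highest KO+NM1 value for 75 genes and piece 01 the lowest for 76. For 52 genes piece 01 was at or below the highest KO piece, whereas pieces 02 and 03 were each above all KO pieces for 79 genes and piece 04 for 69. The 3 KO pieces were all below the 4 KO+NM1 pieces for 30 genes, as for 26.4% of all genes, they were all above for 3 genes, as for 30.5% of all genes, and the groups overlapped for 49.

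**Figure D2:**
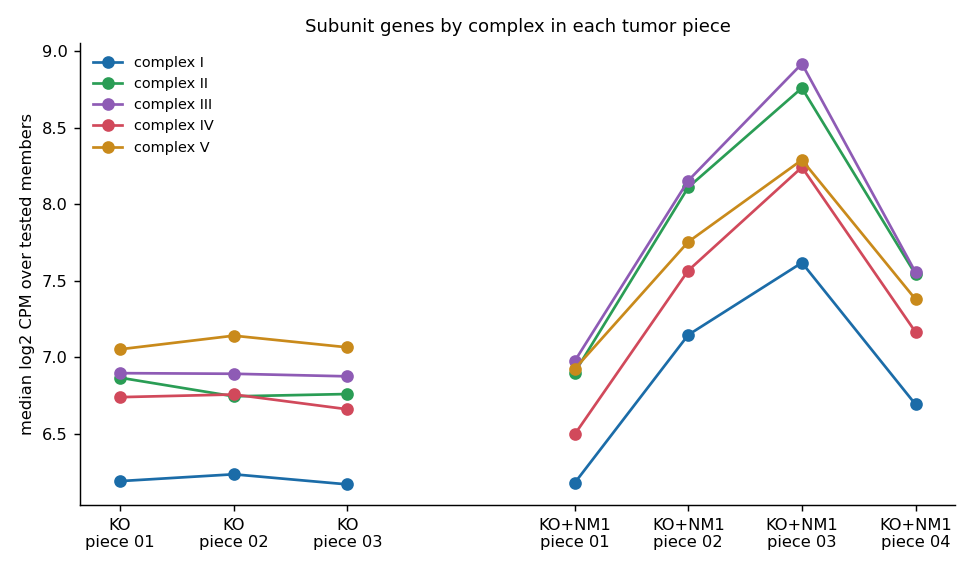
Median log2 CPM over the tested genes of each complex in each of the 7 tumor pieces, where lines join pieces of a group and have no order. The KO pieces sit close together, for example at 6.87, 6.74 and 6.76 for complex II, while the KO+NM1 pieces run from 6.90 to 8.76.

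Subunit genes took 1.14% ± 0.0315 (SD, n = 3) of all counts in KO pieces and 1.71% ± 0.623 (SD, n = 4) in KO+NM1 pieces. The 13 mitochondrially encoded subunits took 1.83% ± 0.184 and 9.99% ± 5.41. All 13 were called lower in KO, with a median log2 fold change of -2.63. Among them, mt-Nd3, mt-Nd4l, mt-Co2 and mt-Co3 had at most 7.02, 3.95, 96.4 and 68.5 CPM in any piece. As mt-Co1 had 6892 CPM or more, these genes add little to the sums. Why their counts were low was not tested. The ratio of mitochondrially encoded to nuclear subunit counts was 1.51, 1.75 and 1.56 in KO pieces 01, 02 and 03 and 4.72, 5.58, 6.95 and 5.11 in KO+NM1 pieces 01 to 04. It did not overlap between the groups, and the mitochondrially encoded counts were the larger in every piece. RNA quality was not measured in the files used here, and its part in this ratio was not tested.

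Complex I joins a catalytic core to many accessory subunits. Of its 35 genes, 8 (22.9%) were called lower in KO and 0 higher, beside 20.3% and 17.1% of all genes. The median log2 fold change was -0.82, and without the 2-fold criterion 10 were lower (24.5% of all genes). All 8 encode accessory subunits, of which 28 were tested with a median of -0.86. Of the 7 core subunits of the nucleus, which bind NADH, flavin and the iron-sulfur clusters and pass electrons on to ubiquinone, 0 were called, with a median of -0.72. Whether core and accessory genes differed was not tested.

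Ndufv3, an accessory subunit at the NADH-binding tip, had the largest fall in complex I. Its CPM was 42.1, 44.9 and 44.3 in KO pieces 01, 02 and 03 and 75.5, 191, 276 and 144 in KO+NM1 pieces 01 to 04. All KO+NM1 pieces were above all KO pieces, piece 01 least, and the log2 fold change was -1.97 ± 0.39 (SE, edgeR adjusted p = 0.0073). Ndufa1, a small membrane subunit needed for assembly, had 37.9, 42.4 and 39.0 CPM in KO pieces and 56.7, 110, 182 and 82.5 CPM in KO+NM1 pieces 01 to 04, again without overlap, and fell by 1.44 on the log2 scale (SE 0.37, edgeR adjusted p = 0.0184). Ndufa10, on the matrix side of the membrane arm, fell by 1.36 (SE 0.45, edgeR adjusted p = 0.0470). The other 5 called genes, named after their values were seen, were Ndufa3, Ndufb3, Ndufb4, Ndufb6 and Ndufb10, and their log2 fold changes lay between -1.36 and -1.09.

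The core subunits had the same order of pieces. Ndufs1, the large subunit with several iron-sulfur clusters, had 134, 126 and 126 CPM in KO pieces 01, 02 and 03 and 92.1, 166, 272 and 138 CPM in KO+NM1 pieces 01 to 04. Piece 01 lay below every KO piece and the log2 fold change was -0.37 ± 0.34 (edgeR adjusted p = 0.394). Ndufv1 and Ndufv2, which hold the flavin and iron-sulfur clusters, and Ndufs3, Ndufs7 and Ndufs8 had log2 fold changes of -0.83, -0.70, -0.74, -0.57 and -0.72, with edgeR adjusted p-values between 0.0782 and 0.184. Ndufb8, an accessory subunit often probed for complex I on blots, had -1.09 (edgeR adjusted p = 0.0757).

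Complex II, succinate dehydrogenase, links the citric acid cycle to the chain and has no subunit encoded in mitochondrial DNA. Of its 4 genes, 3 were called lower in KO, beside 20.3% of all genes, and the median log2 fold change was -1.36. Sdha, the flavoprotein, had 234, 247 and 242 CPM in KO pieces 01, 02 and 03 and 344, 696, 1183 and 522 CPM in KO+NM1 pieces 01 to 04. All KO pieces were below all KO+NM1 pieces, and the log2 fold change was -1.51 ± 0.39 (SE, edgeR adjusted p = 0.0200). Sdhb, the iron-sulfur subunit, fell by 1.27 (SE 0.42, edgeR adjusted p = 0.0429), and Sdhc, a membrane anchor, fell by 1.45 (SE 0.41, edgeR adjusted p = 0.0268), both without overlap. For Sdhd, the other anchor, KO+NM1 piece 01 lay within the KO values (104 CPM, against 107, 103 and 102 CPM in KO pieces), and the log2 fold change was -1.06 ± 0.41 with an edgeR adjusted p of 0.0702. Each of the 3 calls was lost when any of the KO pieces was left out, with edgeR adjusted p-values for Sdha of 0.0542 to 0.0631, and those of Sdhb and Sdhc also without KO+NM1 piece 02, and that of Sdhb without piece 03.

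Complex III, the cytochrome bc1 complex, had 2 of 9 genes (22.2%) called lower in KO, beside 20.3% of all genes. Its median log2 fold change was -1.05. Uqcrh, the hinge protein that lies by cytochrome c1, had 77.9, 77.7 and 73.7 CPM in KO pieces 01, 02 and 03 and 137, 201, 322 and 158 CPM in KO+NM1 pieces 01 to 04. It was higher in every KO+NM1 piece, including piece 01, and fell by 1.42 in KO (SE 0.30, edgeR adjusted p = 0.0081). Uqcrc2, a core protein of the matrix side, fell by 1.17 (SE 0.39, edgeR adjusted p = 0.0483). Uqcrfs1, the Rieske iron-sulfur protein, had -1.18 ± 0.44 (edgeR adjusted p = 0.0645), and its KO values, from 117 CPM, were just below the 119 CPM of KO+NM1 piece 01. Uqcrb and Uqcrc1 had -1.10 and -1.03 (edgeR adjusted p = 0.0729 and 0.0991). Cyc1, cytochrome c1, had the smallest value of the complex, -0.56 ± 0.43 (edgeR adjusted p = 0.315), with KO+NM1 piece 01 at 142 CPM below the KO pieces at 184 to 221 CPM.

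Complex IV held the largest changes in both directions. Of its 18 tested genes, 10 were called lower in KO and 1 higher, beside 20.3% and 17.1% of all genes. The median log2 fold change was -1.16. The 6 tested isoforms of restricted expression accounted for 5 of the lower calls and the higher call, while of the other 12 genes 5 were lower, with a median of -0.91. Without the 6 isoforms, 18 of 76 subunit genes (23.7%) were called lower, beside the 20.3% of all genes, and the median of the 76 was -0.83.

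Cox6a2 (chr7:128205435-128206387, minus strand, GRCm38), the heart and muscle form of subunit 6a, had 13.6, 60.9 and 53.4 CPM in KO pieces 01, 02 and 03 and 1.86, 0.12, 0.049 and 0.33 CPM in KO+NM1 pieces 01 to 04. The KO pieces were above all KO+NM1 pieces, KO piece 01 was the lowest of its group, and KO+NM1 pieces 02 and 03 rested on 3 counts and 1 count, at or under the floor. The log2 fold change was 6.13 ± 1.04 (SE, edgeR adjusted p = 0.0049). Cox6a1, its widely expressed partner whose start region is shown above, went the other way, with 205, 198 and 203 CPM in KO pieces and 273, 646, 1039 and 463 CPM in KO+NM1 pieces 01 to 04. These groups did not overlap either, and Cox6a1 fell by 1.58 in KO (SE 0.42, edgeR adjusted p = 0.0207).

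Cox8b, the muscle and brown fat form of subunit 8, had 4.87, 22.3 and 21.2 CPM in KO pieces 01, 02 and 03 and 90.5, 302, 755 and 161 CPM in KO+NM1 pieces 01 to 04. It did not overlap between groups and fell by 4.34 in KO (SE 0.80, edgeR adjusted p = 0.0087). Cox8a, expressed in most tissues, had 218, 194 and 193 CPM in KO pieces and 228, 575, 809 and 431 CPM in KO+NM1 pieces 01 to 04. It lay above the KO pieces in all 4, in piece 01 only slightly, and fell by 1.34 (SE 0.39, edgeR adjusted p = 0.0291).

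Cox7a1, the muscle and brown fat form of subunit 7a, had 2.63, 6.50 and 6.18 CPM in KO pieces 01, 02 and 03 and 26.5, 44.1, 218 and 23.9 CPM in KO+NM1 pieces 01 to 04. KO+NM1 piece 03 stood far above the other pieces, no values overlapped, and the log2 fold change was -3.94 ± 0.85 (SE, edgeR adjusted p = 0.0146). Without KO piece 01 its edgeR adjusted p was 0.0566. Cox7a2, the widely expressed form, had a log2 fold change of -0.72 ± 0.39 (edgeR adjusted p = 0.165), with KO+NM1 piece 01 at 73.2 CPM below the KO pieces at 99.3 to 103 CPM. Cox7a2l, a related protein that takes part in joining complexes III and IV, had 116, 117 and 103 CPM in KO pieces and 193, 146, 154 and 123 CPM in KO+NM1 pieces 01 to 04. Here piece 01 was the highest and not the lowest, the groups did not overlap, and the log2 fold change of -0.46 ± 0.18 had an edgeR adjusted p of 0.0682.

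Cox6b2, a form of subunit 6b known from testis, was low everywhere, with 0.47, 0.38 and 0.69 CPM in KO pieces 01, 02 and 03 and 5.98, 8.38, 7.26 and 10.4 CPM in KO+NM1 pieces 01 to 04. These values rest on 11 to 21 counts per KO piece and 147 to 252 per KO+NM1 piece, and Cox6b2 fell by 3.95 in KO (SE 0.32, edgeR adjusted p = 0.0005). Piece 01 was the lowest KO+NM1 piece and piece 04 the highest, an order unlike that of most subunit genes. Cox6b1, the common form, fell by 1.14 (SE 0.39, edgeR adjusted p = 0.0483).

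Cox4i2 and Ndufa4l2 are isoforms known to be raised in low oxygen. Cox4i2 had 2.40, 1.67 and 2.05 CPM in KO pieces 01, 02 and 03 and 5.65, 9.93, 6.37 and 8.72 CPM in KO+NM1 pieces 01 to 04, and fell by 1.91 in KO (SE 0.29, edgeR adjusted p = 0.0027). Ndufa4l2 had 1.93, 6.19 and 5.05 CPM in KO pieces and 8.17, 32.9, 21.6 and 22.8 CPM in KO+NM1 pieces 01 to 04, and fell by 2.28 (SE 0.54, edgeR adjusted p = 0.0154). Both were lower in every KO piece than in any KO+NM1 piece. Their common partners fell too, Cox4i1 by 1.18 (SE 0.37, edgeR adjusted p = 0.0359) and Ndufa4 by 1.30 (SE 0.41, edgeR adjusted p = 0.0387), although KO+NM1 piece 01 at 134 CPM lay below the 136 CPM of KO piece 02 for Ndufa4. Cox5a and Cox5b, which have no isoform partner, had -0.38 and -0.61 (edgeR adjusted p = 0.438 and 0.244), and Cox7b had -0.73 (edgeR adjusted p = 0.195).

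To compare isoforms within a piece, the share of 1 isoform in the counts per kb of exon of its family was computed, a measure that needs no scaling between libraries. Cox6a2 made up 6.43%, 24.0% and 21.4% of the Cox6a family in KO pieces 01, 02 and 03 and 0.698%, 0.0195%, 0.00491% and 0.0732% in KO+NM1 pieces 01 to 04. Cox8b made up 3.70%, 16.5% and 15.9% of the Cox8 family in KO pieces and 40.5%, 47.4%, 61.6% and 39.2% in KO+NM1 pieces. The means were 17.3% ± 9.49 (SD, n = 3) and 0.199% ± 0.334 (SD, n = 4) for Cox6a2 and 12.0% ± 7.23 and 47.2% ± 10.3 for Cox8b, without overlap. Both had an exact two-sided permutation p of 0.0286, the smallest that 3 against 4 pieces allow, and an adjusted p of 0.08 over the 7 families compared, so neither passed 0.05 after adjustment.

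Cox7a1 made up 4.30%, 10.3% and 9.89% of the Cox7a1 and Cox7a2 counts in KO pieces 01, 02 and 03 and 39.0%, 29.8%, 59.2% and 22.6% in KO+NM1 pieces 01 to 04 (exact permutation p = 0.0571, adjusted 0.08). Cox6b2 averaged 0.239% ± 0.0855 of its family in KO and 1.94% ± 0.853 in KO+NM1 pieces, also without overlap (exact permutation p = 0.0571, adjusted 0.08). For Ndufa4l2, with 4.10% ± 1.81 and 8.34% ± 2.80, and for Cox4i2, with 1.22% ± 0.208 and 2.29% ± 0.861, the pieces overlapped (exact permutation p = 0.0857 and 0.114, adjusted 0.1 and 0.114).

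**Figure D3:**
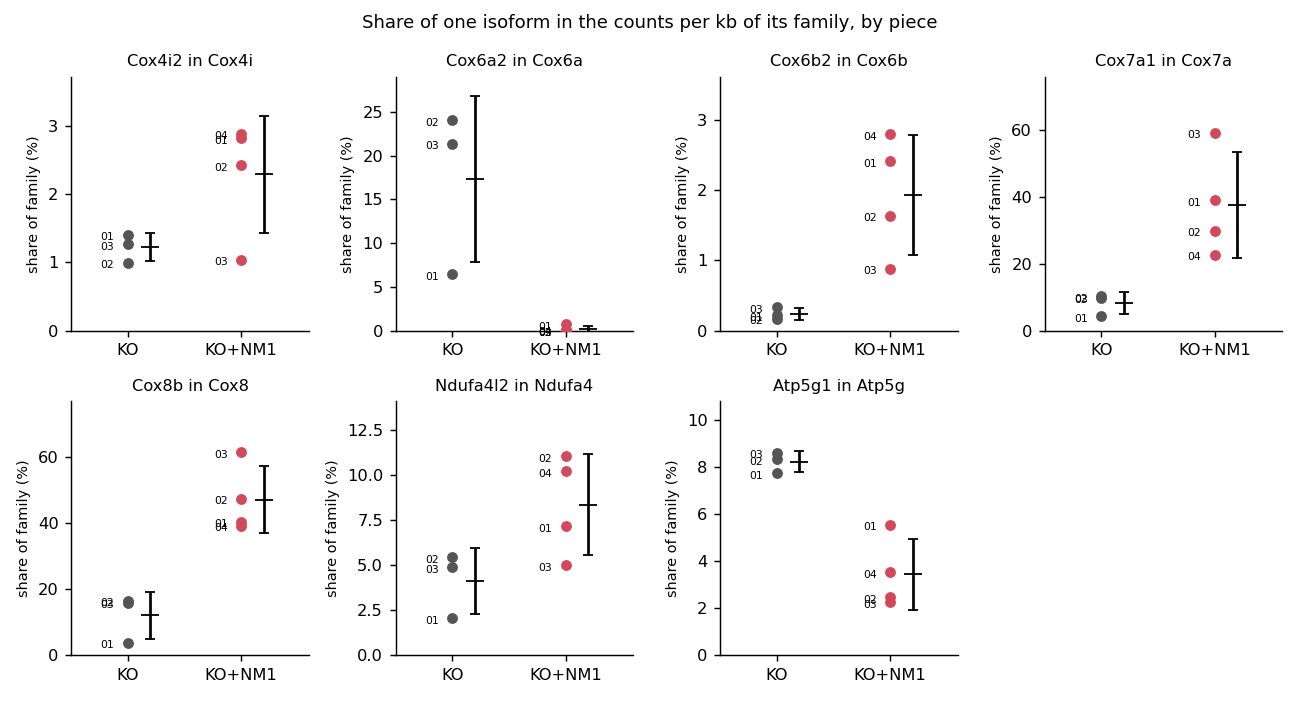
Share (%) of 1 isoform in the counts per kb of exon of its family in each KO piece (grey) and KO+NM1 piece (red), numbered by piece, with mean and SD to the right of the points and each panel on its own axis from 0. Cox6a2 and Atp5g1 took larger shares in all KO pieces, Cox8b, Cox7a1 and Cox6b2 in all KO+NM1 pieces, and the pieces overlap for Cox4i2 and Ndufa4l2.

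Markers of muscle and of fat also differed between the groups. Of 14 skeletal muscle markers 13 were tested and all 13 were called higher in KO. They summed to 2874, 22744 and 18354 CPM in KO pieces 01 to 03. This was the order of pieces seen for Cox6a2, Cox8b and Cox7a1 among KO pieces. The order was not particular to muscle. White adipocyte markers (281, 685 and 593 CPM), mammary epithelium markers (3.67, 65.6 and 45.9 CPM) and brown adipocyte markers shared it. Macrophage, fibroblast and cardiac sums did not. Between the groups, Cox8b and Cox7a1 were lower in KO, where the muscle markers were higher. In KO+NM1 pieces 01 to 04 the markers summed to 28.4, 39.9, 21.8 and 35.2 CPM. The order of this sum was unlike that of Cox6a2, but single markers differed. Atp2a1 (5.87, 0.65, 0.64 and 0.66 CPM), Tnni2, Mylpf and Tnnt3 were highest in piece 01, like Cox6a2. The other listed muscle markers were not, among them Acta1 with 1.68, 21.3, 3.36 and 16.7 CPM. Ckm, the muscle creatine kinase, was at 0.041 to 0.081 CPM. Of 6 brown adipocyte markers 4 were called lower in KO. They summed to 4.07, 14.5 and 4.19 CPM in KO pieces and to 326, 656, 2897 and 291 CPM in KO+NM1 pieces 01 to 04, the order seen for Cox7a1. Ucp1, the uncoupling protein that defines brown fat, was at 0.067, 0.035 and 0.13 CPM in KO pieces and 191, 325, 1775 and 130 CPM in KO+NM1 pieces 01 to 04. All 10 white adipocyte markers were called lower in KO. Of 5 cardiac markers 3 were tested and 1, Myh6, was called higher in KO, and Nppa was at 0 in every piece. The part of these tissues in the isoform values was not tested.

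**Figure D4:**
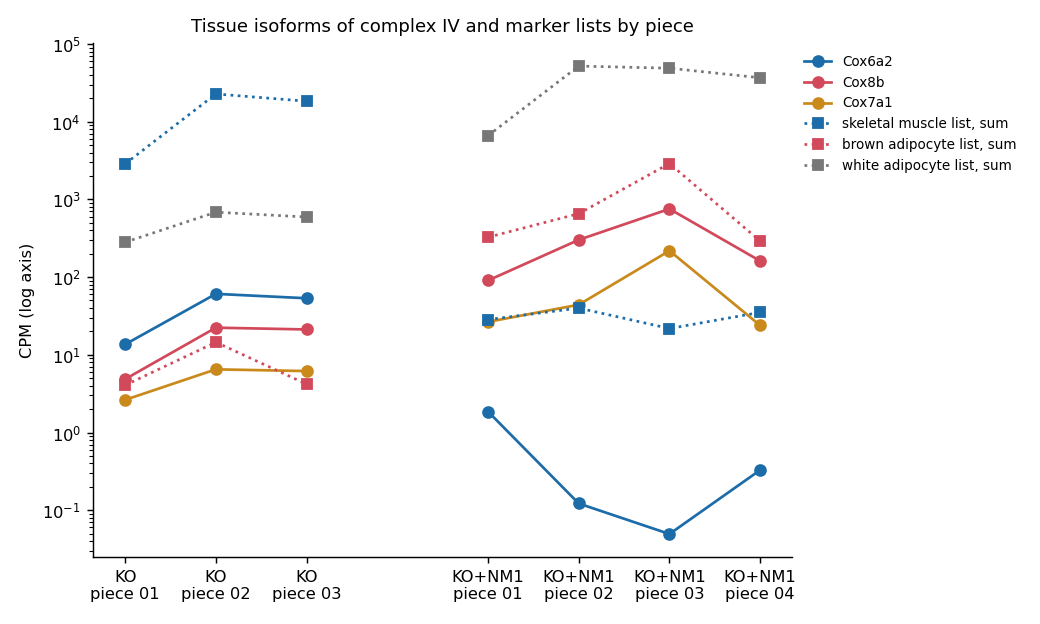
CPM on a log axis of Cox6a2, Cox8b and Cox7a1 (circles, solid lines) and of the summed skeletal muscle, brown adipocyte and white adipocyte markers (squares, dotted lines) in each piece. Cox6a2 lies between 13.6 and 60.9 CPM in KO pieces, where muscle markers sum to 2874 CPM or more, and Cox8b reaches 755 CPM in KO+NM1 piece 03, where brown adipocyte markers reach 2897 CPM.

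Complex V, the ATP synthase, had the median nearest to 0, -0.62 over 16 genes. Of these, 0 were called lower with a 2-fold change and 1, Atp5g1, was called higher, beside 20.3% and 17.1% of all genes. By the adjusted p alone, 3 were lower and 2 higher, beside 24.5% and 25.7% of all genes. The lower ones, named after their values were seen, were Atp5mpl, Atp5e and Atp5l, and the higher ones Atp5g1 and Atp5g2. The catalytic subunits were not called. Atp5b, the beta subunit, had 1759, 1599 and 1634 CPM in KO pieces and 952, 2330, 3818 and 1647 CPM in KO+NM1 pieces 01 to 04, so that pieces 01 and 04 lay below or among the KO values, and its log2 fold change was -0.39 ± 0.45 (edgeR adjusted p = 0.504). Atp5a1, the alpha subunit, had -0.64 ± 0.34 (edgeR adjusted p = 0.164), and Atp5f1, of the peripheral stalk, had -0.19 ± 0.29 (edgeR adjusted p = 0.604).

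The Atp5g genes encode the same mature c subunit of the membrane ring from different precursors. Atp5g1 had 58.7, 63.6 and 59.4 CPM in KO pieces 01, 02 and 03 and 28.6, 26.8, 23.6 and 30.1 CPM in KO+NM1 pieces 01 to 04. It was higher in every KO piece, with little spread in either group, and rose by a log2 fold change of 1.15 ± 0.13 (SE, edgeR adjusted p = 0.0008). Atp5g2 had 43.0, 37.1 and 41.1 CPM in KO pieces and 25.9, 26.9, 30.6 and 23.6 CPM in KO+NM1 pieces. It did not overlap either, and its log2 fold change was 0.59 ± 0.14 (edgeR adjusted p = 0.0117), under 2-fold. Atp5g3 had 255, 263 and 227 CPM in KO pieces and 183, 440, 417 and 337 CPM in KO+NM1 pieces 01 to 04, with piece 01 below the KO pieces, and a log2 fold change of -0.47 ± 0.30 (edgeR adjusted p = 0.233). Atp5g1 made up 8.21% ± 0.447 (SD, n = 3) of the counts per kb of the 3 genes in KO and 3.43% ± 1.51 (SD, n = 4) in KO+NM1 pieces, without overlap (exact permutation p = 0.0571, adjusted 0.08).

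Since nearly all subunit genes stood low in KO+NM1 piece 01 and high in piece 03, libraries were also scaled to the median of the 82 genes in place of TMM, an alternative chosen after the data had been seen that centres the subunit genes by construction. Relative to this median, 4 genes were lower in KO by the adjusted p alone (edgeR), against 10.1% of all genes, and 4 were higher, against 22.1%. Lower were Cox6b2 (log2 difference -3.28, edgeR adjusted p = 0.0045), Cox8b (-3.27, 0.0071), Cox7a1 (-2.80, 0.0134) and Ndufv3 (-1.09, 0.0240). Higher were Cox6a2 (6.30, edgeR adjusted p = 0.0111), Atp5g1 (1.74, 0.0197), Atp5g2 (1.25, 0.0394) and Ndufa12 (0.97, 0.0308). Ndufa12, an accessory subunit of complex I named after its values were seen, had a log2 fold change of 0.11 (edgeR adjusted p = 0.820) with TMM. The median difference was 0.07 in complex I, -0.46 in complex II, -0.11 in complex III, -0.29 in complex IV and 0.23 in complex V. Leaving out a library gave 2 to 6 genes lower and 1 to 5 higher. The shares of all genes in these fits are not given here, so the counts show only how the calls moved.

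**Figure D5:**
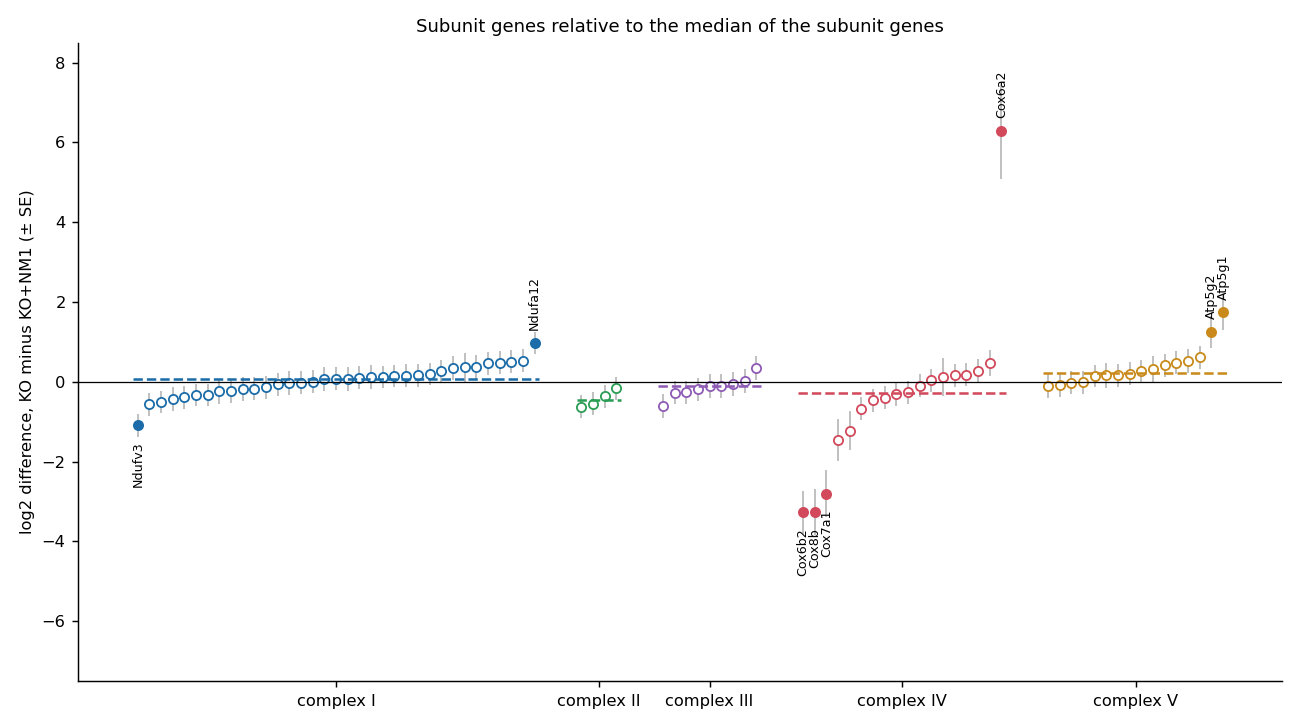
Log2 difference, KO minus KO+NM1, with its standard error for each of the 82 genes after libraries were scaled to the median of these genes, ordered within complexes I to V. Filled and named points passed an adjusted p of 0.05, dashed lines are medians per complex from -0.46 in complex II to 0.23 in complex V, and 74 genes were not called.

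Per length, Atp5b was the highest subunit gene in KO pieces with a mean of 393 CPM per kb of exon, followed by Cox8a with 326, Cox6a1 with 288 and Atp5a1 with 248. Cox8b ranked 57 of 82 in KO pieces with a mean of 44.8 CPM per kb. In KO+NM1 pieces 01 to 04 it had 251, 838, 2097 and 448 CPM per kb, beside 389, 920, 1480 and 660 for Cox6a1 and 369, 930, 1307 and 696 for Cox8a. Cox8b was thus the highest subunit gene in piece 03 and the third, behind Cox6a1 and Cox8a, in each of the other pieces. Cox7a1 ranked 77 in KO pieces with a mean of 9.54 CPM per kb. In KO+NM1 pieces its mean was 146 CPM per kb with rank 31, and 58.9 CPM per kb with rank 54 without piece 03. Lengths merge all annotated exons of a gene, so these ranks depend on the annotation. The order of neighbours in this list was not tested.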

How the data were processed

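Per the labels, total RNA of the tumor pieces was made into NextSeq libraries with a NEBNext Ultra II kit. According to the submitters' processing notes and the methods, the authors used Trimmomatic 0.36 for trimming, HISAT2 2.0.4 for alignment to GRCm38, SAMtools 0.1.19 for sorting and HTSeq for counting reads per gene. The deposited values are raw read counts per Ensembl gene, whole numbers without normalization. The annotation release and the strand option are not given in the sources used here. Of the 84 genes, 26 overlap exons of an antisense gene, 5 a gene on the same strand and 4 share their name with a listed pseudogene, so reads of these could be split or shared.

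Symbols, exon lengths and positions came from GENCODE M21, and start regions from RefSeq. Exon length was that of all annotated exons of a gene merged, so levels per kb and isoform shares depend on the annotation. In R 4.3.3, edgeR 4.0.16 filtered the genes (filterByExpr, minimum count 10), set TMM factors and ran its quasi-likelihood test, KO minus KO+NM1, over all 7 libraries without covariates, with Benjamini-Hochberg adjustment over 16887 genes. A gene was called at an adjusted p under 0.05 and a 2-fold change. CPM are relative to the library size after TMM scaling, and median log2 CPM were taken without a prior count. A prior count of 2 entered only the correlations between KO and KO+NM1 pieces. Isoform shares were compared by exact two-sided permutation of the pieces, adjusted over 7 families. At 3 against 4 pieces the smallest p is 0.0286. Pieces of the same tumor differed beyond sampling noise (chi-square per degree of freedom of 35.2 to 687), so none was a repeat run of another piece of its tumor. They remain pieces of a tumor and are not shown to be independent replicates. Scripts were tested on simulated data. Python 3.11.15 with scipy 1.17.1 was used for shares.

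The genes named with values were the isoform families, the core subunits of complex I, all of complex II, other subunits with central roles and the 3 largest rises and falls of each complex among called genes. Not all genes under this rule are reported here. Members, lists, motifs and markers were chosen with earlier results of these data known. Alternatives were DESeq2 1.42.0 size factors or library size alone, mitochondrially encoded genes left out, every gene with at least 1 count, the DESeq2 Wald test, the replicate number as a block, the adjusted p alone, shares without scaling to length and each library left out. The MEF data of the study were not analysed here.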

Additional observations from a re-analysis of the deposited data

Results flagged for a closer look

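In the group of 4 KO+NM1 pieces, 55 values were tested for 1 piece far from the others by Dixon's ratio, the gap to the nearest piece over the whole range, and 3 exceeded the 95% critical value for 4 samples, as many as chance gives at 1 in 20. For the CPM of Cox6a2, piece 01 was the highest, with a ratio of 0.846. For the share of Cox6a2 in its family, piece 01 was again the highest, with a ratio of 0.901. For the CPM of Cox7a1, piece 03 was the highest, with a ratio of 0.896. The cause was not tested.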

How the results depend on the processing

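Subunit genes called lower in KO were 23 with TMM, 26 with DESeq2 size factors, 17 with library size alone, 23 without mitochondrially encoded genes, 24 with every gene of at least 1 count and 37 by the DESeq2 Wald test. In the same order, 20.3%, 21.7%, 17.6%, 20.3%, 12.7% and 23.4% of all genes were called lower. Leaving out 1 library gave 6 to 56 lower and 1 to 2 higher. Of all genes, 16.6% to 25.1% were then lower and 12.5% to 21.7% higher. The median log2 fold change of the subunit genes ran from -1.18 to -0.53. The cause of these moves was not tested. The median of all genes shifted to 0.17 with library size alone, where that of the subunit genes was -0.62, and to -0.10 with DESeq2 size factors, where it was -0.97. Replicate numbers did not pair the pieces (correlations of same-numbered pieces 0.080, 0.102 and -0.017, and not every piece correlated best with its own number). With the replicate block 8 subunit genes were lower and 1 was higher, beside 14.8% and 14.4% of all genes. Relative to the median of the subunit genes, 2 were higher with the block. Cox6a2 had an edgeR adjusted p of 0.0553 with the block. Relative to the median of the subunit genes, leaving out 1 library gave 2 to 6 lower and 1 to 5 higher. For the fits relative to this median, with the block or without a library, shares of all genes are not given here. Atp5f1 changed sign with library size alone (0.041) and without KO+NM1 piece 03 (0.044), and Cox5a without KO+NM1 piece 03 (0.037), neither being called. Over the libraries left out in turn, Atp5f1 ran from -0.49 to 0.044 and Cox5a from -0.67 to 0.037. Over 42 named genes and 546 values under alternatives, 448 kept direction and side of the threshold, 69 were no longer past it, 26 came past it and 3 changed sign. The differences in isoform share kept their sign without scaling to length and without each library, Cox6a2 from 13.7 to 22.5 percentage points and Cox8b from -37.8 to -30.3, where the smallest p of 0.0667 or 0.1 cannot pass 0.05. With 3 against 4 pieces and 1 tumor per condition in the labels, no difference between mice can be told from one between conditions. Cox6a2 in KO+NM1 pieces and Cox6b2 in KO pieces rest on few counts.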

Other observations

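Assembly factors, which build the complexes but do not stay in them, stood closer to 0 than the subunits. Of 46 listed, 44 were tested, 8 were called lower in KO and 0 higher, beside 20.3% and 17.1% of all genes. By the adjusted p alone 12 were lower and 4 higher, beside 24.5% and 25.7% of all genes. The median log2 fold change was -0.34. The medians were -0.51 for factors of complex I, -0.68 for complex II, -0.22 for complex III, -0.15 for complex IV and -0.23 for complex V. They summed to 1092 to 1130 CPM in KO pieces and to 1028, 1472, 1877 and 1201 CPM in KO+NM1 pieces 01 to 04, so piece 01 was again the lowest and piece 03 the highest. Cycs, cytochrome c, the mobile carrier between complexes III and IV, had a log2 fold change of -0.95 (edgeR adjusted p = 0.139). Whether subunits and assembly factors differed was not tested.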
